A study of Mus musculus with 6 samples.

Results

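The genes described are 9 that encode extracellular proteases and their inhibitors: the matrix metalloproteases Mmp2, Mmp9, Mmp14 and Mmp15, the proteases Adamts1 and Adamts4, and the tissue inhibitors Timp1, Timp2 and Timp3. They were taken by symbol, and all 9 were found among the 34981 genes of the deposited table. They were measured by RNA sequencing in the B16F10 line, melanoma cells that derive from a C57BL/6 mouse, seeded at 500 cells in 50 µl of Matrigel (7 mg/ml), a basement membrane extract in which they grow as spheroids. The cells were given bone morphogenetic protein 2 (BMP2), a secreted signal that acts through SMAD proteins, at 100 ng/ml for 10 days in 3 cultures, or PBS for the same 10 days in 3 others. The experiment was carried out 3 times, and each of the batches 1, 2 and 3 holds 1 culture of either kind. Both groups are the same unmodified line cultured alone, and the labels name no other cells in the cultures.

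Matrix metalloproteases are zinc enzymes that cut collagens, laminins and other matrix and surface proteins, and they are made as inactive precursors. MMP14 and MMP15 are anchored in the cell membrane, and MMP14 on the surface of tumour cells binds TIMP2, which in turn holds the precursor of MMP2 for activation, so that TIMP2 both assists that step and blocks the active enzymes. ADAMTS1 and ADAMTS4 are secreted and cut proteoglycans such as versican, aggrecan and brevican. TIMPs block these enzymes with different preferences, and TIMP3, which stays bound to the matrix, also blocks ADAM and ADAMTS proteases.

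Library totals lay between 27821911 and 36856498 estimated counts. Values are CPM (counts scaled to the library size) after scaling by trimmed mean of M values, and log2 fold changes are BMP2 minus PBS. The PBS library of batch 1 stood apart on the first principal component, at -79.7 against -16.8 to 55.5 for the other 5. Of 7 melanocytic markers, 0 were at 0 counts and their summed level was 28870 to 39070 CPM with BMP2 and 23670 to 26310 CPM with PBS. The 7 fibroblast markers summed to 6.29 to 17.0 CPM with BMP2 and 6.47 to 15.97 CPM with PBS. The 6 macrophage markers summed to 3.00 to 5.99 CPM with BMP2 and 4.44 to 5.89 CPM with PBS, with Adgre1 at 0 counts in all libraries. Of these markers, Lyz2 was higher with BMP2 in each batch (log2 fold change 1.65, SE 0.61, edgeR adjusted p 0.839). Cd68 was lower in each batch (-0.80, SE 0.33, edgeR adjusted p 0.883). The 5 endothelial markers summed to 0.724 to 2.05 CPM with BMP2 and 1.02 to 1.76 CPM with PBS. Cdh5 and Tek were at 0 counts in all libraries, and Pecam1 had 29 to 59 rounded counts. A shift in RNA content per cell cannot be told apart from a shift in cell number in these bulk libraries.

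The stretches of DNA just upstream of 4 of the genes are shown first. Timp3 was lower with BMP2 in every batch, with a log2 difference of -0.10 in batch 2, and its log2 fold change changed sign under 2 of 18 alternatives. Adamts1 and Mmp14 were both lower in batches 2 and 3. In batch 1 the Adamts1 values were almost equal and Mmp14 was slightly higher with BMP2. Timp1 was lower in batch 1 alone. None of the 4 passed in either edgeR fit. Each stretch begins 250 bases before the RefSeq start of the gene, is 150 bases long, reads 5′ to 3′ on the strand of the gene and comes from RefSeq on GRCm38.p6. They lie at chr16:85803214-85803363 (minus strand) for Adamts1, chr10:86300162-86300311 (plus) for Timp3, chr14:54431348-54431497 (plus) for Mmp14 and chrX:20869916-20870065 (plus) for Timp1. Capitals mark matches to the E-box CANNTG, which basic helix-loop-helix factors bind, or to the GC box GGGCGG on either strand.
Adamts1: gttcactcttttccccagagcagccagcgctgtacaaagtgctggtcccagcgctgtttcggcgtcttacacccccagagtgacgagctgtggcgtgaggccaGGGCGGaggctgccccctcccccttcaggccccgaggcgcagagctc
Timp3: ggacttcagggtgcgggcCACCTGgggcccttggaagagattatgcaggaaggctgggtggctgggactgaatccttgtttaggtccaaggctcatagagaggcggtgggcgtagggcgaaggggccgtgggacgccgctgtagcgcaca
Mmp14: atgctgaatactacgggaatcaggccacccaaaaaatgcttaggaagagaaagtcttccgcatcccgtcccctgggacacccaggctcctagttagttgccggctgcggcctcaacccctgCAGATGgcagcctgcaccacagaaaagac
Timp1: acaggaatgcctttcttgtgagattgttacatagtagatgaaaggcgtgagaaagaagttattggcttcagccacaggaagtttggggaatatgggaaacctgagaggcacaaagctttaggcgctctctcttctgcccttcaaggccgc

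Timp3 and Mmp14 each held 1 E-box, Adamts1 held 1 GC box and Timp1 held neither. Over 32851 such windows of 150 bases, 49.3% held an E-box and 16.7% a GC box. The AP-1 motif TGANTCA, present in 4.0% of windows, and the SMAD-bound motif GGCGCC, present in 4.9%, had 0 matches in these 4 windows, with both strands searched. The bases between each window and the start of its gene were not searched. Of the windows not printed, that of Timp2 held 2 E-boxes and that of Mmp15 held 2 E-boxes and 1 GC box.

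Timp3, Timp2, Mmp14 and Adamts1 were the most abundant of the 9 genes, and Mmp2, Mmp15 and Mmp9 the least. The level per kilobase of the longest coding transcript was 59.2 ± 39.6 with BMP2 and 79.2 ± 44.5 with PBS for Timp3, and 48.3 ± 14.1 and 79.4 ± 18.8 for Timp2 (CPM per kb, mean ± SD, n = 3 each). It was 52.5 ± 6.0 with BMP2 and 64.7 ± 20.8 with PBS for Mmp14, and 25.0 ± 6.7 and 42.0 ± 11.1 for Adamts1. Adamts4 followed at 12.2 ± 1.7 with BMP2 and 18.9 ± 2.3 with PBS, and Timp1 at 9.84 ± 0.61 and 8.80 ± 1.29. Mmp2 was at 1.73 ± 0.16 with BMP2 and 1.40 ± 0.43 with PBS, Mmp15 at 0.886 ± 0.977 and 0.525 ± 0.387, and Mmp9 at 0.0721 ± 0.0345 and 0.0808 ± 0.0582. Timp3, Timp2 and Mmp14 were within each other's spread, so their order is not resolved, and neither is that of Mmp2 against Mmp15 with BMP2. The order also rests on the length used: over the union of annotated exons, the mean of all 6 libraries was 40.1 for Timp3 and 31.8 for Mmp14, against 69.2 and 58.6 with the longest coding transcript, while Timp2 was at 60.8 against 63.8. Adamts1 was at 30.9 against 33.5, so over the union of exons it lay close to Mmp14.

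None of the 8 members that passed the filter on low counts differed between BMP2 and PBS at an adjusted p under 0.05 in the quasi-likelihood test of edgeR, with treatment alone or with batch as a block. Mmp9 was too low to be tested. Among all 12929 genes tested, 0.0464% passed with treatment alone and 0.735% with the block. At an unadjusted p under 0.05, 3 of the 8 members (Adamts4, Adamts1 and Timp2) stood below PBS with treatment alone, where 5.38% of all genes passed that limit in either direction, and 4 did with the block (Timp3 in addition), where 17.0% of all genes did. The Wald test of DESeq2 called 0 members with treatment alone, where it called 1.01% of all genes, and 3 lower with the block, where it called 3.19% of all genes lower. Of the 8 members, 4 (Timp2, Timp3, Adamts4 and Adamts1, the last with almost equal values in batch 1) were lower in all 3 batches and 1 (Mmp2) was higher, against 21.1% and 22.7% of all genes tested. The median log2 fold change was -0.36 over the 8 members and 0.010 over all genes tested.

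**Figure D1:**
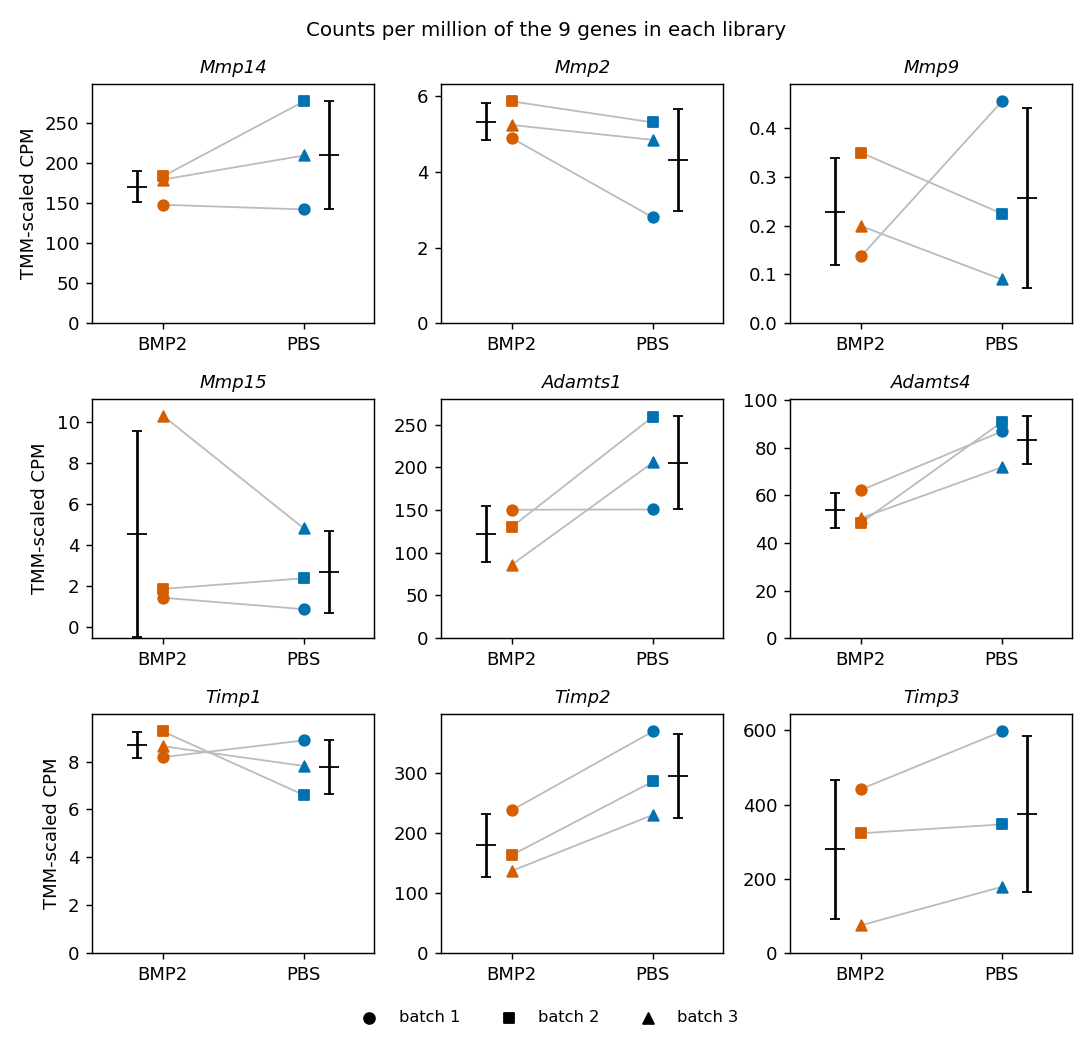
TMM-scaled CPM (vertical axes, from 0 where the SD allows) of the 9 genes in the BMP2 libraries, left, and the PBS libraries, right, of each panel. Symbols give the batch, grey lines join the cultures of 1 batch, and black bars are the mean ± SD over 3 libraries. For Timp2 and Adamts4 each BMP2 point sits below the PBS point of its batch, and for Adamts4 the groups do not overlap.

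The inhibitors were examined first. Timp2 (ENSMUSG00000017466, chromosome 11, 118301069 to 118355740, minus strand) encodes the soluble inhibitor that links MMP14 and MMP2. It had 237, 163 and 137 CPM in the BMP2 libraries of batches 1, 2 and 3, against 368, 285 and 230 CPM in the PBS libraries. In each batch the BMP2 library was below its PBS partner, although the groups overlapped across batches, since BMP2 of batch 1 lay above PBS of batch 3. The log2 difference of Timp2 was -0.63, -0.81 and -0.75 in batches 1, 2 and 3. Its log2 fold change was -0.72 (SE 0.27, edgeR adjusted p 0.859) with treatment alone and -0.73 (SE 0.13, adjusted p 0.0721) with the block, and DESeq2 with the block gave -0.74 (SE 0.15) at an adjusted p of 0.000104. Timp2 was also called lower by edgeR with the block when no filter on low counts was applied (adjusted p 0.0114), where 2.32% of all genes passed. Over the 18 alternatives tried, its adjusted p ran from 0.000104 to 1.00.

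Timp3 (ENSMUSG00000020044, chromosome 10, 86300372 to 86349506, plus strand), the matrix-bound inhibitor, differed more between batches than between treatments. It had 441, 323 and 75.0 CPM in the BMP2 libraries, against 597, 346 and 179 CPM in the PBS libraries. In both groups batch 1 was the highest and batch 3 the lowest, and the groups overlapped widely. Its log2 differences were -0.43, -0.10 and -1.25 in batches 1, 2 and 3, and the log2 fold change was -0.42 (SE 0.63, edgeR adjusted p 0.911). That value became 0.029 without BMP2 replicate 3 and 0.080 without PBS replicate 1. Timp3 lies inside the neuronal gene Syn3 on the opposite strand, and 21.9% of its 31-base words occur in other genes, so part of its count is uncertain. Timp3 had 3002 to 12892 rounded counts in a BMP2 library and 5972 to 18337 in a PBS library. Syn3 was assigned 61 to 84 and 67 to 84, and how the shared words were divided was not tested.

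Timp1 (ENSMUSG00000001131, chromosome X, 20870166 to 20874735), an inhibitor known in many cell types to be induced by growth factors and cytokines, had similar levels in all libraries. It had 8.18, 9.26 and 8.64 CPM with BMP2, against 8.88, 6.60 and 7.81 CPM with PBS. The groups overlapped, and its log2 fold change was 0.16 (SE 0.24, edgeR adjusted p 0.909). The share of Timp1 in the summed per-kilobase level of Timp1 to Timp4 was 5.55%, 8.37% and 15.6% with BMP2 and 4.27%, 4.74% and 8.14% with PBS in batches 1, 2 and 3. The sum behind that share was lower with BMP2 in each batch, and Timp1 itself was lower with BMP2 in batch 1.

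Among the membrane-bound metalloproteases, Mmp14 (ENSMUSG00000000957, chromosome 14, 54431612 to 54445364, plus strand) supplied 93.6% to 96.0% of the summed per-kilobase level of the 4 Mmp members with BMP2 and 96.2% to 97.4% with PBS. It had 148, 183 and 179 CPM in the BMP2 libraries, against 142, 277 and 209 CPM in the PBS libraries. BMP2 lay below PBS in batches 2 and 3 and slightly above it in batch 1, and the groups overlapped. Its log2 fold change was -0.30 (SE 0.26, edgeR adjusted p 0.883), and -0.044 without PBS replicate 2 or -0.52 without PBS replicate 1. Mmp15, a second membrane-bound enzyme, had 1.44, 1.87 and 10.3 CPM with BMP2, against 0.878, 2.39 and 4.82 CPM with PBS. Batch 3 held the highest value of both groups, and the log2 fold change of 0.76 (SE 0.85, edgeR adjusted p 0.894) became -0.71 without BMP2 replicate 3.

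The gelatinases Mmp2 and Mmp9, secreted enzymes that cut denatured collagen and type IV collagen, were scarce. Mmp2 (ENSMUSG00000031740, chromosome 8, 92827291 to 92853420) had 4.90, 5.87 and 5.24 CPM with BMP2, against 2.80, 5.31 and 4.85 CPM with PBS. It was higher with BMP2 in each batch, by 0.79, 0.14 and 0.11 on the log2 scale, with a log2 fold change of 0.30 (SE 0.33, edgeR adjusted p 0.892) that was 0.064 without PBS replicate 1. Mmp9 (ENSMUSG00000017737) had 4, 12 and 8 rounded counts in the BMP2 libraries, against 14, 8 and 3 in the PBS libraries. Mmp9 was therefore detected in each library, yet in numbers too small to compare.

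The secreted proteoglycan-cutting enzymes both lay lower with BMP2, and their groups did not overlap (by 150.4 against 150.6 CPM at the closest for Adamts1), which held for 5.72% of all genes tested in that direction. Adamts4 (ENSMUSG00000006403, chromosome 1, 171250421 to 171260637, plus strand) had 62.0, 48.4 and 50.4 CPM in the BMP2 libraries, against 86.8, 90.7 and 71.7 CPM in the PBS libraries. Each BMP2 library was below each PBS library, with log2 differences of -0.48, -0.90 and -0.51 in batches 1, 2 and 3. The log2 fold change of Adamts4 was -0.63 (SE 0.19, edgeR adjusted p 0.687) with treatment alone and -0.63 (SE 0.14, adjusted p 0.119) with the block, while DESeq2 with the block gave an adjusted p of 0.0103, within a range of 0.0103 to 1.00 over the 18 alternatives.

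Adamts1 (ENSMUSG00000022893, chromosome 16, 85793827 to 85803113, minus strand) had 150.4, 130.2 and 86.0 CPM with BMP2, against 150.6, 259 and 206 CPM with PBS. The cultures of batch 1 were almost equal, and the gap was in batches 2 and 3, with log2 differences of -0.99 and -1.26. Its log2 fold change was -0.75 (SE 0.28, edgeR adjusted p 0.850) with treatment alone and -0.76 (SE 0.25, adjusted p 0.221) with the block, at an adjusted p of 0.0246 in DESeq2 with the block. Without batch 1 the blocked edgeR value was -1.13 (SE 0.12, adjusted p 0.00598). It was -0.63 (adjusted p 0.527) without batch 2 and -0.50 (adjusted p 0.438) without batch 3. Each of these fits has 1 residual degree of freedom, and the 18 alternatives gave adjusted p values from 0.00598 to 1.00. PBS replicate 1, the library that stood apart, was the lowest PBS library for Adamts1, Mmp14, Mmp2 and Mmp15 and the highest for Timp1, Timp2, Timp3 and Mmp9, and its part in these results beyond the values without it was not tested.

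**Figure D2:**
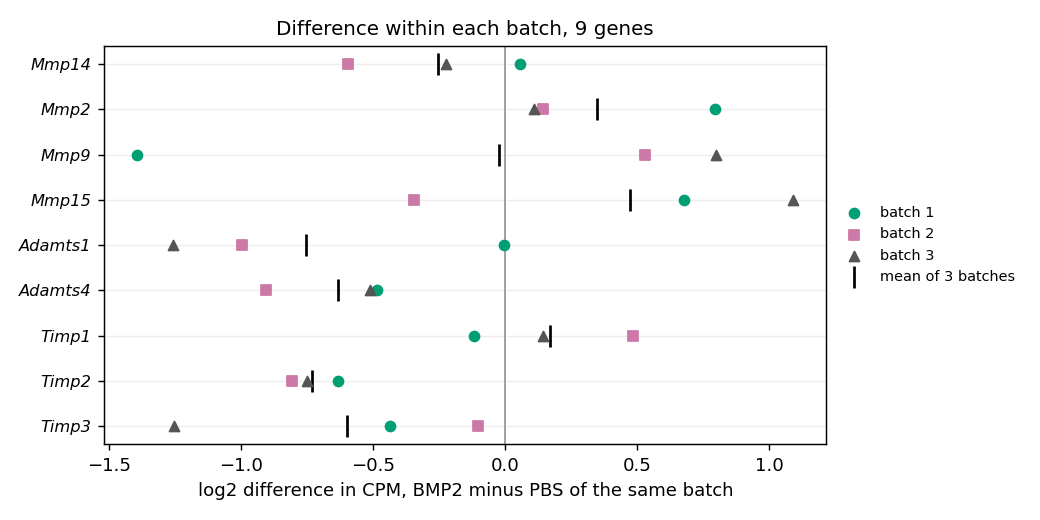
Log2 difference in CPM (horizontal axis, BMP2 minus the PBS library of the same batch) of the 9 genes, with a symbol per batch and a black tick at the mean of the 3 batches. Timp2 shows the narrowest spread among the genes with a mean below -0.5, from -0.81 to -0.63, whereas Adamts1 runs from -1.26 to about 0 and Timp3 from -1.25 to -0.10.

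Set against each other within a library, inhibitors and proteases shifted by different amounts in different batches. The summed level of Timp1, Timp2 and Timp3 was 166.7, 122.8 and 62.5 CPM per kb in the BMP2 libraries of batches 1, 2 and 3, against 235.6, 157.8 and 108.6 in the PBS libraries. The summed level of the 6 protease genes was 92.5, 96.7 and 88.2 CPM per kb with BMP2, against 95.7, 161.5 and 125.7 with PBS. Both sums were lower with BMP2 in each batch. The ratio of inhibitor to protease message was 1.80, 1.27 and 0.708 with BMP2, against 2.46, 0.977 and 0.864 with PBS, so it was lower with BMP2 in batches 1 and 3 and higher in batch 2. The per-kilobase ratio of Timp2 to Mmp14 was 1.40, 0.776 and 0.666 with BMP2, against 2.26, 0.899 and 0.958 with PBS, lower with BMP2 in all 3 batches. These ratios describe the libraries and carry no test, and their size depends on the transcript lengths used.

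**Figure D3:**
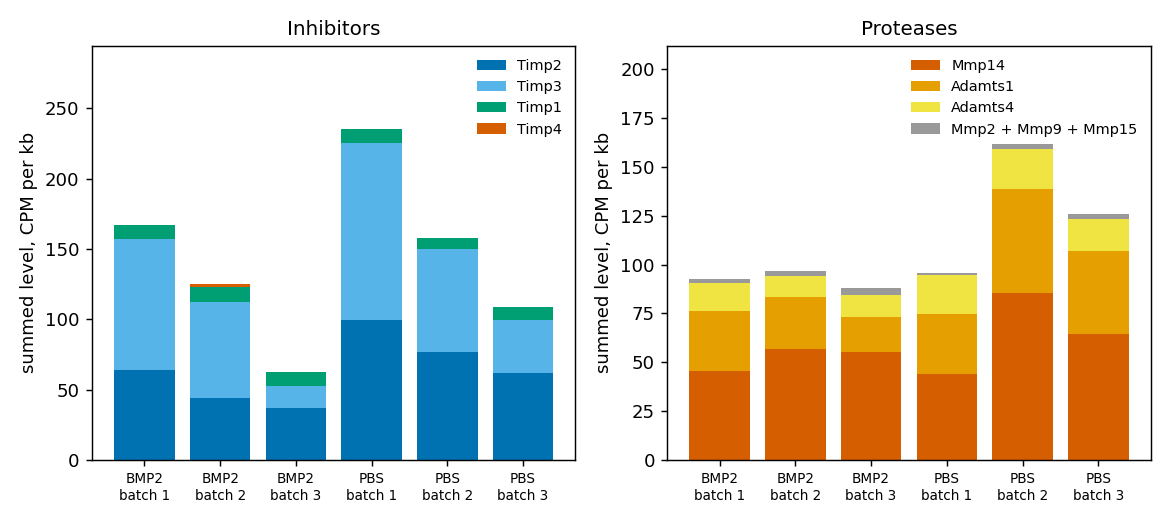
Summed level per kilobase of the longest coding transcript (vertical axes, CPM per kb) of the inhibitors Timp1 to Timp4, left, and the proteases, right, in each BMP2 library and then each PBS library, with 1 colour per gene. The inhibitor bars are tallest in batch 1 and shortest in batch 3 of both groups, at 166.9 and 62.7 with BMP2 and at 235.6 and 108.7 with PBS, and Mmp14, Adamts1 and Adamts4 fill nearly all of the protease bars.

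The fourth inhibitor gene, Timp4, had a different pattern from the 3 others. It had 0.924, 13.5 and 1.30 CPM in the BMP2 libraries, against 0, 0.0562 and 0.239 CPM in the PBS libraries. The PBS values rest on 0, 2 and 8 rounded counts. All BMP2 libraries were above all PBS libraries, which held for 6.42% of all genes tested, and BMP2 of batch 2 was far above the other two. The log2 fold change of Timp4 was 5.67 (SE 1.40), and 3.42 to 7.30 with a library left out. It did not pass in either edgeR fit (adjusted p 0.441 with treatment alone, 0.107 with the block) and passed in DESeq2 with the block (0.0087). The 17 alternatives that gave an adjusted p ranged from 1.03e-06 to 0.989, and 4 of these called Timp4. With BMP2 it made up 0.101% to 1.96% of the summed per-kilobase inhibitor level.

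Of the other metalloprotease genes, 6 (Mmp1b, Mmp3, Mmp7, Mmp10, Mmp13 and Mmp27) had 0 rounded counts in all 6 libraries. The Mmp family had 22 genes in the table, 8 of them tested, and 0 passed in either edgeR fit. The median log2 fold change of those 8 was 0.26. The membrane-linked enzyme gene Mmp17 had 1.23, 1.05 and 1.60 CPM with BMP2, against 4.65, 1.69 and 2.81 CPM with PBS, and its groups did not overlap (log2 fold change -1.23, SE 0.47, edgeR adjusted p 0.865, and -0.80 without PBS replicate 1). Mmp19 lay the other way, also without overlap, at 0.650 to 1.46 CPM with BMP2 and 0.393 to 0.599 CPM with PBS (log2 fold change 1.02, SE 0.51, edgeR adjusted p 0.883, and 0.58 without BMP2 replicate 2). Among all genes tested, 5.72% had all BMP2 libraries below all PBS libraries and 6.42% had them above. Of the 31-base words of Mmp19, 26.7% occur in other genes, so part of its count is uncertain. The log2 fold changes of Mmp11, which is usually made by stromal cells, and Mmp12, the macrophage elastase, were -0.31 (SE 0.44) and 0.63 (SE 0.48), and they became 0.081 for Mmp11 without BMP2 replicate 3 and 0.24 for Mmp12 without BMP2 replicate 1.

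In the ADAMTS family, with ADAMTS-like genes included, 24 genes were in the table and 14 were tested. Of these 14, 7 were lower and 2 were higher with BMP2 in all 3 batches, 5 had all BMP2 libraries below all PBS libraries, and 0 passed in either edgeR fit. Among all genes tested, 21.1% were lower and 22.7% higher in all 3 batches, and 5.72% had all BMP2 libraries below all PBS libraries. The median log2 fold change was -0.44. Besides Adamts1 and Adamts4, the non-overlapping genes on the lower side were Adamts9, Adamts12 and Adamtsl4. Adamts9 stood at -0.95 on the log2 scale (SE 0.44), Adamts12 at -0.60 (SE 0.24) and Adamtsl4 at -0.80 (SE 0.23). The value of Adamts9 was -0.57 without BMP2 replicate 3, and 11.5% of its 31-base words occur in other genes. DESeq2 with the block called Adamts9 (adjusted p 0.0111) and Adamtsl4 (0.012) lower, against 0.168 and 0.116 in edgeR with the block. Adamts12 had 7.67, 6.31 and 6.59 CPM with BMP2, against 12.1, 9.50 and 9.58 CPM with PBS. Adamtsl5, an ADAMTS-like gene without a protease domain, had 25.2, 23.8 and 29.8 CPM with BMP2, against 9.53, 14.6 and 18.9 CPM with PBS, and was the 1 gene of this family with all BMP2 libraries on top (log2 fold change 0.87, SE 0.28, edgeR adjusted p 0.722). With the block the adjusted p of Adamtsl5 was 0.12 in edgeR and 0.00547 in DESeq2, which called 1.86% of all genes higher.

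ADAM proteins are membrane proteins, and some but not all are active proteases that release surface proteins and are sensitive to TIMP3 in part. This family had 11 tested genes with a median log2 fold change of 0.087 and 0 calls in either edgeR fit. Adam9 was the most abundant of them per kilobase, with a log2 fold change of -0.040 (SE 0.18). Adam10, a sheddase of Notch and cadherins, had 147, 299 and 228 CPM with BMP2, against 49.4, 153 and 159.9 CPM with PBS, higher with BMP2 in each batch, with a log2 fold change of 0.89 (SE 0.45, edgeR adjusted p 0.883) that was 0.51 without PBS replicate 1. With the block Adam10 stood at 1.01 in edgeR (adjusted p 0.107) and passed in DESeq2 (0.000191). The edgeR fit with the block also called it without batch 1 (0.0356), without batch 3 (0.0034) and with no filter on low counts (0.00428). That fit did not call Adam10 without batch 2 (log2 fold change 1.05, adjusted p 0.312), and fits without a batch have 1 residual degree of freedom. The adjusted p of all 18 alternatives ranged from 0.000191 to 1.00. Adam15 had 18.1, 18.4 and 17.5 CPM with BMP2, against 42.5, 27.3 and 32.9 CPM with PBS. Its groups did not overlap (log2 fold change -0.93, SE 0.22, edgeR adjusted p 0.387), and 18.2% of its 31-base words occur in other genes, so part of its count is uncertain. Adam15 was the 1 gene of these families and the regulators that DESeq2 called with treatment alone (adjusted p 0.0152). With the block its adjusted p was 0.0901 in edgeR and 0.00112 in DESeq2, and over the alternatives it ran from 0.00112 to 0.989. Adam12 and Adam23 had log2 fold changes of 0.77 (SE 0.57) and 0.79 (SE 0.34), higher with BMP2 in each batch. The value of Adam12 was 0.37 without BMP2 replicate 3 and 0.35 without PBS replicate 1, and that of Adam23 was 0.35 without BMP2 replicate 2. With the block DESeq2 called Adam12 (adjusted p 0.00816, against 0.154 in edgeR) and did not call Adam23 (0.123).

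Regulators of these enzymes gave 17 tested genes, a median log2 fold change of -0.16 and 0 calls in either edgeR fit. Bsg, which encodes basigin, known as an inducer of metalloproteases, was the most abundant, at 3366, 2433 and 889 CPM with BMP2, against 5086, 3048 and 1909 CPM with PBS, lower with BMP2 in each batch (log2 fold change -0.59, SE 0.51, edgeR adjusted p 0.883). Leaving out BMP2 replicate 1 gave -1.01, BMP2 replicate 3 gave -0.21 and PBS replicate 1 gave -0.16. With the block the adjusted p of Bsg was 0.168 in edgeR and 0.00775 in DESeq2. Lrp1, an endocytic receptor that clears metalloproteases and TIMPs, had 53.3, 22.2 and 12.0 CPM with BMP2, against 73.7, 58.9 and 63.8 CPM with PBS, without overlap of the groups (log2 fold change -1.17, SE 0.48, edgeR adjusted p 0.883). With a library left out, this value ranged from -1.93 (without BMP2 replicate 1) to -0.80. With the block Lrp1 was at -1.42 in edgeR (adjusted p 0.142) and was called by DESeq2 (0.000104), and the 18 alternatives ranged from 0.000104 to 1.00. Pcolce, an enhancer of procollagen processing, and Thbs1, a matrix protein, had log2 fold changes of -0.56 (SE 0.38) and -0.83 (SE 0.49). Pcolce was at -0.86 with BMP2 replicate 1 left out, at -0.30 with BMP2 replicate 3 and at -0.16 with PBS replicate 1 left out, and passed in DESeq2 with the block (adjusted p 0.0433), while Thbs1 was at -0.52 without PBS replicate 2. Itgb3, an integrin subunit, was at 1.22 (SE 0.53) with BMP2 of batch 2 at 242 CPM against 45.9 to 68.7 in the other libraries, and at 0.21 without that library.

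The list of matrix substrates and their modifiers had 15 tested genes. Col4a1, a chain of type IV collagen, was the 1 gene of this list that passed in either edgeR fit. It passed with batch as a block, where 0.735% of all genes did. Col4a1 had 7.26, 5.72 and 2.17 CPM with BMP2, against 40.6, 21.6 and 7.13 CPM with PBS. It fell by 2.05 on the log2 scale (SE 0.22, edgeR adjusted p 0.0241) with the block and did not pass with treatment alone (0.67), within a range of 5.03e-13 to 1.00 over the alternatives. Without batch 2 the blocked value of Col4a1 was -2.11 at an edgeR adjusted p of 0.0725. Its partner chain Col4a2 stood at a log2 fold change of -1.51 (SE 0.44, edgeR adjusted p 0.624, and 0.0503 with the block, where DESeq2 gave 5.88e-06). Of the 18 alternatives 5 called Col4a2, among them edgeR with the block and DESeq2 size factors (adjusted p 0.0494). Hspg2, which encodes the basement membrane proteoglycan perlecan, had 39.6, 48.6 and 26.2 CPM with BMP2, against 90.3, 65.6 and 67.9 CPM with PBS, without overlap (log2 fold change -0.97, SE 0.26, edgeR adjusted p 0.568). With the block its adjusted p was 0.0967 in edgeR and 0.00027 in DESeq2, and 0.00566 in edgeR with no filter on low counts.

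Bcan, which encodes brevican, a proteoglycan of brain matrix that ADAMTS4 is known to cut, differed the most in the list. It had 79.3, 304 and 237 CPM in the BMP2 libraries, against 33.4, 22.4 and 13.0 CPM in the PBS libraries. The groups did not overlap, and the log2 fold change was 3.17 (SE 0.54), at an edgeR adjusted p of 0.184 with treatment alone and 0.0816 with the block. DESeq2 called it with treatment alone (adjusted p 2.61e-07) and with the block (0.00516). With no filter on low counts edgeR called it too (adjusted p 0.0126 with treatment alone, 0.000131 with the block). Of the 18 alternatives 6 called Bcan, and their adjusted p ranged from 2.61e-07 to 0.752 over all 18. Acan, the gene of aggrecan, had 0 counts in all libraries. Sparc, a collagen-binding matrix protein and the most abundant of the list per kilobase, had a log2 fold change of 0.29 (SE 0.34), and -0.012 without BMP2 replicate 2. The list as a whole had a median of -0.14.

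**Figure D4:**
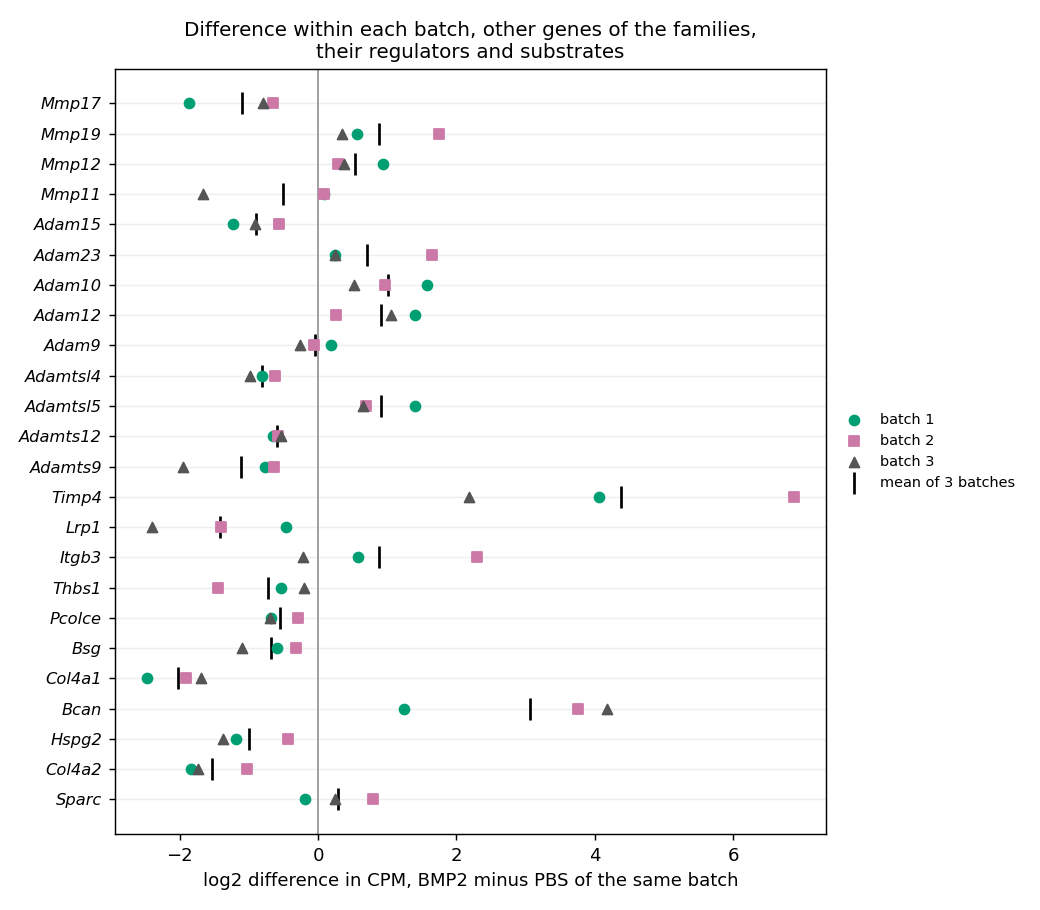
Log2 difference in CPM (horizontal axis, BMP2 minus the PBS library of the same batch) for 24 other genes of the Mmp, ADAM, ADAMTS and TIMP families, their regulators and their substrates, with a symbol per batch and a black tick at the mean of the 3 batches. Timp4 and Bcan have the highest means, and Col4a1 has the lowest.

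Among 9471 protein-coding genes at a mean of at least 5 CPM, the gene whose profile over the 6 libraries was closest to that of Adamts4 was Cadm1, a cell adhesion molecule gene, with a mean absolute difference of 0.053 in centred log2 CPM. The closest to Timp2 was Whamm, which encodes an actin nucleation factor, at 0.068, and the closest to Adamts1 was Rnft1 at 0.103. Cadm1 had 275.3 ± 45.6 CPM with BMP2 and 407 ± 52.7 CPM with PBS (SD, n = 3 each).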

How the data were processed

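RNA was measured in 6 libraries made from 500 ng of RNA, for which the labels' protocols name the TruSeq kit of Illumina. The authors deposited estimated counts per gene, and the submitters' processing notes name kallisto 0.44.0 and the build GRCm38.p6. Strand setting, annotation release and gene summing: not given in the sources used here. Since kallisto splits reads that several genes share, sharing of 31-base words is given where it is over 10%. Symbols, positions and lengths came from GENCODE M21 on GRCm38, which matched 34679 of the 34981 genes.

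Counts were rounded and all genes fitted in edgeR 4.0.16 (quasi-likelihood test, R 4.3.3; default filter on low counts, trimmed mean of M values, treatment alone, Benjamini-Hochberg adjustment, threshold 0.05). The SE is the fold change divided by the root of F. Differences within a batch are of log2 CPM with a prior count of 2. Per the labels, the replicate number marks a shared batch, and after removal of group means, the libraries of batches 1, 2 and 3 correlated across genes at 0.514, 0.248 and 0.518, so the fit with batch as a block is given where it bears on a call. Residual degrees of freedom are then 2, against 4 with treatment alone. They are 3 with treatment alone and 1 library left out, and 1 with the block and a batch left out. Alternatives were DESeq2 1.42.0, its size factors, limma 3.58.1 after quantile normalization, other filters and leaving out libraries or batches. Scripts were tested on simulated counts.

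The genes, lists and motifs were chosen with earlier results of these data known. The lists were the Mmp, Adam, Adamts and Timp families, regulators, and matrix substrates with their modifiers. All 9 members were named, and from each list any gene called in either edgeR fit, the 4 of smallest unadjusted p and the most abundant per kilobase. For the 3 members of smallest unadjusted p, the gene of closest profile was named. Of the keratinocyte markers, 2 were in the table, with Krt10 at 0 counts and a summed level of up to 0.0599 CPM. RefSeq promoters were found for 6 of the 9 members. Mmp2, Mmp9 and Adamts4 had no entry, and the Timp2 window is not shown as 108 of its bases are exonic in GENCODE.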

Additional observations from a re-analysis of the deposited data

How the results depend on the processing

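With batch as a replicate block, 48 genes were called higher and 47 lower over all genes, against 1 and 5 with treatment alone, and the count of members called lower stayed at 0. The block together with no filter on low counts gave 223 and 277 genes, together 2.32% of the 21593 tested. Among genes of the Mmp, Adam, Adamts and Timp families and the regulators (family genes, which include the members), it called 4 higher and 7 lower. Of these 7, 2 were members (Timp2 at -0.72 and Adamts4 at -0.62). The block in the DESeq2 Wald test gave 241 and 412 genes, 1.86% and 3.19% of the 12929 tested. Of 54 family genes tested, it called 4 higher and 9 lower. Of these 9, 3 were members (Timp2 at -0.74, Adamts1 at -0.77 and Adamts4 at -0.65). The block with DESeq2 size factors gave 47 and 51 genes. Without the block, 19 and 16 genes were called with no filter on low counts, 0 higher with the filter at a mean of 100 counts, 2 higher with quantile normalization, and 62 and 68 with DESeq2, which called 1 family gene lower (Adam15). The cause of these differences was not tested.

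Leaving out 1 library gave 0 to 5 genes higher and 2 to 5 lower. With the block, leaving out batch 1, 2 or 3 gave 223, 9 and 115 genes higher and 308, 18 and 103 lower, and called 3 family genes higher without batch 1 or batch 3. Without batch 1 it called 5 family genes lower, and 3 of these were members, namely Timp2 at -0.79, Adamts1 at -1.13 and Adamts4 at -0.72. Without batch 2 or batch 3 it called 0 members lower, with Adamts1 at -0.63 and -0.50 and Adamts4 at -0.49 and -0.70. The number of genes tested in these fits is not given, so their counts have no share of all genes beside them. Fits that leave out a batch have 1 residual degree of freedom. With a library left out, log2 fold changes ranged from -0.97 to -0.53 for Timp2, -0.94 to -0.54 for Adamts1, -0.75 to -0.56 for Adamts4, -0.91 to 0.080 for Timp3 and -0.71 to 1.48 for Mmp15. Timp2, Adamts1, Adamts4, Mmp14, Mmp2 and Timp1 kept their direction under all 18 alternatives, while Timp3 changed it under 2 and Mmp15 under 1. Among the other named genes, Adam9 stood at 0.068 under quantile normalization, at 0.062 without batch 3 and at -0.10 to 0.046 with a library left out, Mmp11 at 0.081 without batch 3 and -0.61 to 0.081, and Sparc at -0.012 to 0.56.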
